A study of Homo sapiens with 13 samples.

Results

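The epidermal differentiation complex is a cluster of genes on human chromosome 1 whose products build the outer layer of skin. The 10 genes described here are LCE3D, LCE3E, IVL, SPRR1A and SPRR1B, which encode envelope proteins, TGM1, which encodes a crosslinking enzyme, and the S100 genes S100A2, S100A8, S100A9 and S100P. They are 10 of the 73266 gene symbols in 3 deposited count tables and were chosen by name with results of these libraries already known. Their levels and ratios are therefore descriptions without a test.

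The libraries came from A549, a human lung adenocarcinoma line, and were made to ask what a transcription unit on chromosome 17 (PRR11, SKA2, miR-301a and miR-454) does to gene expression. In the first set, a stable line with CRISPR interference at the promoter shared by PRR11 and SKA2 (CRISPRi_PRR11+SKA2 promoter-sgRNA#1) stands against a mock guide (CRISPRi_Mock sgRNA). In the second, stable lentiviral lines labelled LV-PRR11, LV-SKA2 and LV-P+S (both genes) stand against LV-vector-PS. The third set holds lentiviral lines LV-miR301a, LV-miR454 and LV-3+4 (both microRNAs) and their vector line LV-vector-34, and the last holds precursor knockouts by a system the labels call CRISPRd (CRISPRd_miR301a-#2 and CRISPRd_miR454-#1) and CRISPRd_Control. The lentiviral lines use the CMV promoter of a pCDH vector, and the labels do not say whether a line is 1 clone. Every group is 1 library, so each ratio compares 2 libraries and not 2 conditions, and no spread between replicates is known.

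Total counts ran from 18672601 to 21811946 per library. Libraries of poly(A) RNA do not measure mature microRNAs, so the microRNA labels were not checked. In the CRISPR interference library PRR11 stood at 0.643% and SKA2 at 0.292% of the mock level. Relative to CRISPRd_Control, CRISPRd_miR301a-#2 held 72.4% (68.1 to 76.9) of PRR11 and 99.1% (91.5 to 107) of SKA2. CRISPRd_miR454-#1 held 68.5% (64.4 to 72.9) of PRR11 and 70.0% (64.0 to 76.5) of SKA2. The library labelled LV-PRR11 held 109% (103 to 116) of its vector's PRR11 and the library labelled LV-SKA2 held 84.4% (77.9 to 91.4) of its vector's SKA2. In the library labelled LV-P+S these shares were 110% for PRR11 and 88.7% for SKA2. The labels do not say if reads from the lentiviral inserts were counted, so those lines' shares neither bear out nor refute their labels. Of 6 simple epithelial markers, all were detected in 12 of the 13 libraries, with summed levels of 10371 to 15724 CPM (counts per 1000000 of the scaled library). KRT19 was the exception, with 0 counts in CRISPRd_miR301a-#2 and 1 in CRISPRd_miR454-#1, against 355 in CRISPRd_Control. Alveolar markers were near their limit of detection, at 1.27 to 4.12 CPM for 4 or 5 genes together.

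In skin, keratinocytes that leave the basal layer assemble a cornified envelope beneath the plasma membrane. Involucrin, the product of IVL, forms an early scaffold, small proline-rich proteins such as SPRR1A and SPRR1B crossbridge it, and late cornified envelope proteins of the LCE family are added last, all joined by transglutaminases such as TGM1. S100 proteins are small calcium-binding proteins. S100A8 and S100A9 pair as calprotectin, which neutrophils store and which keratinocytes make in inflamed or wounded skin, S100A2 is typical of basal epithelial cells, and S100P is abundant in many carcinomas. Airway cells express parts of this programme when they undergo squamous change.

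In GRCh38, 8 of the 10 genes lie on chromosome 1. LCE3E (152565654 to 152566772) and LCE3D (152579381 to 152580504) are adjacent on the minus strand, and IVL (152908545 to 152911886), SPRR1A and SPRR1B follow on the plus strand. S100A9 (153357854 to 153361027, plus strand), S100A8 and S100A2 (153561108 to 153567890, minus strand) lie in the S100 cluster of the same region. S100P lies on chromosome 4 at 6693069 to 6697170 and TGM1 on chromosome 14 at 24249114 to 24264432, outside the complex.

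The stretches of 250 bases before the RefSeq start are shown for the members that carried the largest differences. LCE3D (chr1:152580517-152580766, minus strand) and LCE3E (chr1:152566781-152567030, minus strand) come from neighbouring genes that were high in the same library, and capitals mark the longest stretch the 2 promoters share, 36 bases. In IVL (chr1:152908296-152908545, plus strand) capitals mark an AP-1 motif 123 bases before the start and a TATA motif 30 bases before it. S100A9 (chr1:153357604-153357853, plus strand) and S100P (chr4:6693628-6693877, plus strand) were both high in the knockout libraries, and capitals mark their TATA motifs. The S100P stretch lies inside the span given above for this gene, which comes from GENCODE. Sequences are from RefSeq on GRCh38.p14 and run 5′ to 3′ on the gene's strand.
LCE3D: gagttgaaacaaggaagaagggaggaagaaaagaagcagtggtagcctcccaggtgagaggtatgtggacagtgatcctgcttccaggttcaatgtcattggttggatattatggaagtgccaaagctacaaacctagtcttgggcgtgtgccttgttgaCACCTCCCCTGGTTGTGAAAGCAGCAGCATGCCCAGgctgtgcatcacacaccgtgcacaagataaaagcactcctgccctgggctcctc
LCE3E: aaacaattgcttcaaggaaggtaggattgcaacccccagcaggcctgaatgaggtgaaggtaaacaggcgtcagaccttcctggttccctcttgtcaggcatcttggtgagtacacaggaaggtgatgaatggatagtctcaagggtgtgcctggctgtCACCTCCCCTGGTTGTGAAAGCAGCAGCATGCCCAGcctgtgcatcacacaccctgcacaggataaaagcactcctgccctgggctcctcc
IVL: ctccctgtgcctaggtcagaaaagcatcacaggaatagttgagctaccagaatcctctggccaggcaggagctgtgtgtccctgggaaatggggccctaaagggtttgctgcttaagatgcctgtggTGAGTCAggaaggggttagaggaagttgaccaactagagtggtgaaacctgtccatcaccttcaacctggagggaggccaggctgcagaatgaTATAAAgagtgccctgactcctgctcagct
S100A9: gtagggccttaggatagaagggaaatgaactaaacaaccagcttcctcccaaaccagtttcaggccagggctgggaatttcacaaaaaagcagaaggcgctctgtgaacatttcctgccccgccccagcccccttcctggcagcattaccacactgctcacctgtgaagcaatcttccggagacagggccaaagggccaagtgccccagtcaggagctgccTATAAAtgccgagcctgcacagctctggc
S100P: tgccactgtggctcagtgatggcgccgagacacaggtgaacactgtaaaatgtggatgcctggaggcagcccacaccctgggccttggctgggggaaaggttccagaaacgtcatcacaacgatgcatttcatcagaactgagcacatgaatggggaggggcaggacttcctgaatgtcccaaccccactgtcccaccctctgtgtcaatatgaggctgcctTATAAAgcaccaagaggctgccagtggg

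Promoters were matched by symbol for 9 of the 10 members (all but TGM1), and 3 motifs were searched on both strands. The AP-1 motif (TGANTCA) is the site of Fos and Jun dimers, which drive many envelope genes in keratinocytes. It was found in the IVL, SPRR1A and SPRR1B promoters and at 1 of the 2 S100A2 starts, and it occurs in 6.57% of all 35116 promoters. The TATA motif (TATAAA) was found in IVL, SPRR1A, S100A9 and S100P and at 2 of the 3 S100A8 starts, against 10.7% of all promoters. A C/EBP motif (TTGCNNAA) was in no member's promoter and in 9.05% of all. Such matches describe letters in these windows only.

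The microRNAs manipulated in the lentiviral microRNA and knockout sets are shown because they share a seed, bases 2 to 8, in capitals. Both come from RefSeq on GRCh38.p14.
hsa-miR-301a-3p: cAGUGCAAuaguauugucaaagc
hsa-miR-454-3p: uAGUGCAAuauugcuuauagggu
The complement of this seed, TTGCACT, was found once in the longest transcript of TGM1 and in none of the other 9 members. Over 19669 coding genes 20% hold it, with a median transcript of 2934 bases, while the members' transcripts run from 270 bases (SPRR1A) to 2777 bases (TGM1). The SPRR1A transcript is 1 exon from 152985231, while the window before its RefSeq start ends at 152984080. A match outside that exon would have been missed.

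To be measured in a comparison, a member needed 20 reads in the pair of libraries together and 1 CPM in 1 of them. Calls of higher or lower were made when the ratio of CPM + 0.5 was at least 2-fold and the exact 95% counting interval of the plain CPM ratio excluded equality. Log2 ratios below are on the CPM + 0.5 scale, which understates changes of low genes, and folds are plain CPM ratios with their counting interval. Members that reached 1 CPM in at least 1 library numbered 7, and SPRR1A, SPRR1B and S100A8 reached it in none. The values nearest that limit were 1.10 CPM for S100A2 in LV-vector-34, just above it, and 0.907 CPM for S100P in the CRISPR interference library, just below.

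The CRISPR interference library stood apart most. Of 6 measured members, 4 were called higher (LCE3D, LCE3E, IVL and S100A2), 1 lower (S100P) and 1 was not called (TGM1), where 9.43% of all 15003 measured genes were called higher and 5.97% lower. LCE3D, LCE3E and IVL were under 1 CPM in the mock library and became measured only through the library in which they were high, so their place among the measured genes is not independent of their call. Against LV-vector-34, LV-miR454 had 2 of 4 measured members higher (LCE3D and S100A2) and 1 lower (S100A9), with 2.97% of all genes called higher and 3.42% lower. Each knockout library had 2 of 3 measured members higher, S100A9 and S100P in both, where 6.72% of all genes were called higher and 4.15% lower in CRISPRd_miR301a-#2, and 6.61% higher and 3.1% lower in CRISPRd_miR454-#1. S100A9 in both, like LCE3D in LV-miR454, was under 1 CPM in the control. Both knockouts are set against 1 shared control library.

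In the other 5 comparisons no member was called. LV-miR301a and LV-3+4 had 3 measured members each, with 0.359% and 0.285% of all genes called higher and 0.372% and 0.36% lower. The libraries labelled LV-PRR11, LV-SKA2 and LV-P+S had 2 measured members each, S100A2 and S100P. There, 0.179%, 0.141% and 0.134% of all genes were called higher and 0.119%, 0.111% and 0.127% lower. With so few genes called at all, 0 calls among 2 or 3 members say little about the members.

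LCE3D had the largest log2 ratio of all members, 6.51, on the CPM + 0.5 scale. Its count was 2166 in the CRISPR interference library, against 12 in its mock library, or 98.2 CPM against 0.584 CPM, a ratio of 168 (96.1 to 326). In bulk RNA, more cells with the transcript and more transcript per cell cannot be told apart. In the other 11 libraries LCE3D had 0 to 8 counts, except LV-miR454, where it had 48 counts against 4 in LV-vector-34, a ratio of 12.1 (4.44 to 46.3). LV-miR301a had 8 and LV-3+4, which carries both microRNAs per its label, had 2. Set against CRISPRd_Control instead, with 5 counts, LV-miR454 still had 10.0 times the level.

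LCE3E followed LCE3D at a lower level. It had 567 counts in the CRISPR interference library, against 2 in the mock library, a ratio of 264 (72.8 to 2186) whose width comes from those 2 control counts. The table with the PRR11 and SKA2 libraries does not list this gene. LV-miR454 had 9 counts of LCE3E, against 0 in LV-vector-34, which is at least 3.03-fold higher against 3 counts but too few reads to count as measured. Elsewhere it had 0 to 2 counts.

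The split between these neighbours is uncertain, because their transcripts are 93.4% identical over 608 aligned bases with identical runs of up to 127 bases. Among the 9 libraries that list both, their expected counts held fractions only in the CRISPR interference library, LV-miR301a and LV-miR454. There the counts of LCE3D and LCE3E added up to a whole number to within 0.005. Elsewhere the counts of both genes were already whole. Summed, an alternative chosen after the data were seen, they had 2733 reads in the CRISPR interference library, against 14 in the mock library, a ratio of 182 (108 to 333). Together they had 57 reads in LV-miR454, against 4 in LV-vector-34, a ratio of 14.4 (5.32 to 54.6). LCE3D took 79.3% of the sum in the CRISPR interference library, 85.7% in its mock library and 84.3% in LV-miR454.

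IVL was detected at more than 1 read in a single library. The CRISPR interference library had 126 counts (5.71 CPM), against 1 in the mock library, a ratio of 117 with an interval of 20.7 to 4672. LV-PRR11, as labelled, and LV-miR454 had 1 read each, and the remaining 9 libraries had 0, which allows up to 0.165 CPM. A difference of IVL between LV-miR454 and its vector line was therefore not detectable at this depth.

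The small proline-rich genes were essentially unread. SPRR1A had 1 read in LV-miR454 and 0 in the other 12 libraries, and SPRR1B had 0 in all 13. Their transcripts are 96.3% identical over 270 aligned bases, so reads could be split between them, but their sum is also 1. At 3 counts the limit is 0.136 CPM in the CRISPR interference library and up to 0.165 CPM in the others. That library thus held LCE3D, LCE3E and IVL without detectable SPRR1A or SPRR1B.

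TGM1, the transglutaminase that joins these proteins, stayed near 1 CPM or below. It had 26 counts in the CRISPR interference library, against 23 in the mock library, a ratio of 1.05 (0.578 to 1.93). In the other tables it had 5 to 16 counts, under 1 CPM in each library and so not measured. Both knockout libraries had 5 counts, against 15 in CRISPRd_Control, and the intervals of those ratios (0.101 to 1.03 and 0.103 to 1.04) include equality.

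S100A2 was detected in all 13 libraries, at 0.835 to 6.76 CPM. The CRISPR interference library had 149 counts, against 62 in its mock library, a ratio of 2.24 (1.65 to 3.06). That log2 ratio, 1.04, lies just past the limit of 1, and with 1 CPM added in place of 0.5 it is 0.95 and no longer called. LV-miR454 had 65 counts of S100A2, against 21 in LV-vector-34, a ratio of 3.12 (1.89 to 5.38). Against CRISPRd_Control the same library gave a ratio of 2.19 (1.40 to 3.47) and a log2 ratio of 0.93, which is not called.

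Elsewhere S100A2 did not pass the rule. The knockouts had 26 counts (CRISPRd_miR301a-#2) and 47 counts (CRISPRd_miR454-#1), against 31 in CRISPRd_Control. The second of these is a ratio of 1.64 (1.02 to 2.67). The libraries labelled LV-PRR11, LV-SKA2 and LV-P+S had 40, 22 and 33 counts, against 25 in LV-vector-PS. LV-miR301a had 25 and LV-3+4 had 16, against 21 in LV-vector-34.

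S100A9 was the member that differed most between the knockouts and CRISPRd_Control. CRISPRd_miR301a-#2 had 269 counts (14.5 CPM) and CRISPRd_miR454-#1 had 163 (8.94 CPM), against 4 in CRISPRd_Control (0.203 CPM). The ratios were 71.5 (27.6 to 264) and 44.1 (16.9 to 164). These sizes rest on a control with 4 counts. Against LV-vector-34, the other vector line in the same table, with 32 counts, the ratios were 8.66 (5.99 to 12.9) and 5.34 (3.64 to 8.07), still called higher. Against that line S100P differed more in CRISPRd_miR454-#1, with a log2 ratio of 3.46 where S100A9 had 2.12. In CRISPRd_miR301a-#2 the 2 genes were close, at 2.77 for S100P and 2.79 for S100A9.

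The 2 control lines of that table themselves differed in this gene. LV-vector-34 held 8.26 times (2.93 to 32.2) the S100A9 of CRISPRd_Control, a pair in which 2.62% of all measured genes were called higher and 1.73% lower. LV-miR301a had 36 counts and LV-3+4 had 32, against 32 in LV-vector-34, and were not called. LV-miR454 had 3, against the same 32, and so was 10.6 times lower (3.31 to 53.9). Against CRISPRd_Control, with 4 counts, LV-miR454 has too few reads to be measured, and LV-miR301a and LV-3+4 are called higher at 9.12 and 8.24 times. The calls of S100A9 in the lentiviral microRNA lines thus depend on which control line is used.

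Outside the microRNA and CRISPRd libraries S100A9 was low. The CRISPR interference library had 1 count, against 11 in its mock library, under the limit for a measured gene. The libraries labelled LV-PRR11, LV-SKA2 and LV-P+S had 8, 5 and 9 counts, against 13 in LV-vector-PS. Ranked over all libraries, with tables scaled separately, the knockouts came first with intervals that do not overlap each other. LV-miR301a, LV-vector-34 and LV-3+4 followed at 1.67 to 1.85 CPM with overlapping intervals.

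S100A8, the partner of S100A9 in calprotectin, was barely read. CRISPRd_miR301a-#2 had 2 counts and CRISPRd_miR454-#1 had 4, against 0 in CRISPRd_Control. LV-vector-PS had 1 and the other 9 libraries had 0. The knockout libraries with 163 and 269 counts of S100A9 thus held few reads of its partner.

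S100P was the most abundant member per length in all 4 control libraries, at 4.01 to 9.91 CPM per kilobase of exon. The CRISPR interference library had 20 counts, against 137 in its mock library, and was 7.35 times lower (4.58 to 12.4). Both knockouts were higher, with 703 counts (37.9 CPM) in CRISPRd_miR301a-#2 and 1123 (61.6 CPM) in CRISPRd_miR454-#1, against 187 in CRISPRd_Control (9.47 CPM). The ratios were 4.00 (3.40 to 4.72) and 6.50 (5.57 to 7.63). Against LV-vector-34 they were 7.39 (5.97 to 9.22) and 12.02 (9.77 to 14.9), and also called. S100P was thus on opposite sides of its control in the CRISPR interference and knockout libraries.

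The lentiviral lines differed less in S100P. The libraries labelled LV-PRR11, LV-SKA2 and LV-P+S had 160, 207 and 219 counts, against 239 in LV-vector-PS, with none called. The first of these ratios, 0.674 (0.548 to 0.827), excludes equality by counting error but is under 2-fold. LV-miR301a had 81, LV-miR454 had 137 and LV-3+4 had 72, against 98 in LV-vector-34, also with none called. Against CRISPRd_Control, LV-miR301a and LV-3+4 would be called lower, at 2.28 and 2.52 times. In the order of levels, only the 2 knockouts at the top and the CRISPR interference library at the bottom (0.907 CPM, 0.554 to 1.40) had intervals clear of their neighbours.

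Per kilobase of exon, the CRISPR interference library ranked LCE3D first, with a level of 160 CPM per kilobase, ahead of LCE3E at 42.1, S100A2 at 4.31 and IVL at 2.65. In the knockouts S100P led at 29.6 and 48.1 CPM per kilobase, ahead of S100A9 at 25.1 and 15.5. Different members therefore led in the CRISPR interference and knockout libraries.

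The whole complex was read from S100A10 to S100A1, an interval of 1.65 megabases with 64 coding genes on chromosome 1 (151982915 to 153627926). In the CRISPR interference library 16 of these genes were measured, and 9 were called higher and 0 lower. Over all measured genes the shares were 9.43% higher and 5.97% lower. Of the 16, 6 were under 1 CPM in the mock library, passed the filter only through the CRISPR interference library and were all called higher, and 3 of the other 10 were called higher. Besides LCE3D, LCE3E, IVL and S100A2 the higher genes were FLG, TCHH, KPRP, S100A13 and CRCT1. CRCT1, a cysteine-rich gene, is no member of a list and is named after its values were seen, with 80 counts against 4 in the mock library. It borders LCE3E, so 3 neighbouring genes were higher there, while LCE3C, LCE3B and LCE3A on the other side of LCE3D had 0 reads in both libraries. Of the 63 genes listed, 32 had 0 reads in both.

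LV-miR454 had 11 measured genes in this interval, 5 higher and 1 lower, where 2.97% of all genes were called higher and 3.42% lower. In LV-vector-34, 2 of the 5 higher genes were under 1 CPM. The higher ones were FLG, LCE3D, S100A4, S100A3 and S100A2, the last 3 of which are neighbours, and the lower one was S100A9. Over all genes 6.72% were called higher in CRISPRd_miR301a-#2 and 6.61% in CRISPRd_miR454-#1. In the interval each knockout had 11 measured genes and 2 higher, S100A9 and S100A14, both under 1 CPM in CRISPRd_Control. The interval overlaps the members, so these counts include them.

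Other genes of epidermal differentiation were read from lists drawn up with earlier results known. Those called in the microRNA and CRISPRd libraries were also set against the other control line of that table, a check added after the data were seen, and where the call differed this is given beside the gene. A gene under 1 CPM in the control can be measured only where the other library is high, so how many were is given beside the counts most affected. As background, the shares of all measured genes called higher and lower were 9.43% and 5.97% in the CRISPR interference library. They were 2.97% and 3.42% in LV-miR454, 6.72% and 4.15% in CRISPRd_miR301a-#2, and 6.61% and 3.1% in CRISPRd_miR454-#1. Of 29 further envelope precursors of the complex (other LCE genes, SPRR2 to SPRR5, loricrin and others), 1 was measured in the CRISPR interference library. That was KPRP, a keratinocyte proline-rich protein, with 28 counts against 0 in the mock library, while 23 of the 29 had 0 in both. In the other comparisons none of the 28 or 9 that were listed was measured. Most genes of the envelope family were therefore silent at this depth while LCE3D, LCE3E and IVL were read.

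Fused S100 proteins, large structural proteins such as filaggrin, were 2 of 3 measured higher in the CRISPR interference library. FLG (filaggrin, which bundles keratin) had 238 counts against 36, a ratio of 6.16, and TCHH (trichohyalin, of the hair root sheath) had 61 against 11, a ratio of 5.17. TCHH was under 1 CPM in the mock library (0.535 CPM) and was measured only through the library in which it was high. In LV-miR454 FLG was the 1 measured and was higher, with 22 counts against 6 in LV-vector-34, but was not called against CRISPRd_Control (14 counts). FLG was under 1 CPM in LV-vector-34 (0.314 CPM), so it passed the filter only through LV-miR454. It was measured but not called in CRISPRd_miR301a-#2, and not measured in CRISPRd_miR454-#1.

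Among 17 other S100 genes the CRISPR interference library had 1 of 7 measured higher, S100A13, which takes part in release of signal proteins, at 2.28-fold. All of the remaining 6 had a log2 ratio below 1, and the list's median was 0.71. In LV-miR454, 2 of 7 were higher, S100A4 (3.30-fold), a motility-linked protein, and S100A3 (3.04-fold), known from hair. In the knockouts S100A14 was the 1 of 8 called, with 22 and 29 counts, against 2 in CRISPRd_Control. Against LV-vector-34, with 7 counts, it was called in CRISPRd_miR454-#1 and not in CRISPRd_miR301a-#2.

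The envelope scaffold and crosslinking list (15 genes) was most often called in the knockouts. CRISPRd_miR301a-#2 had 5 of 9 measured genes higher, where 6.72% of all genes were, and none lower. CRISPRd_miR454-#1 had 6 of 10 higher, where 6.61% were, and none lower. Of the 5 and 6 higher list genes, 1 and 2 were under 1 CPM in CRISPRd_Control. Among the 8 measured genes at or above 1 CPM there, 4 were higher in each knockout. SLPI, a secreted protease inhibitor, was higher 24.0-fold and 12.7-fold. PI3, the elafin inhibitor that is crosslinked into the envelope, was higher 18.7-fold and 11.5-fold, and SCEL, the scaffold protein sciellin, 24.0-fold and 13.9-fold. SCEL also differed between the control lines, at 4.23 times in LV-vector-34 over CRISPRd_Control, and against LV-vector-34 it was 5.68-fold and 3.27-fold higher in the knockouts, still called.

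In the CRISPR interference library this list had 2 of 10 measured genes higher, TGM2 and PI3, with a median of 0.04. PI3 was under 1 CPM in the mock library (0.584 CPM). TGM2, the tissue transglutaminase, had 54069 counts against 11344 in the mock library, a ratio of 4.44, where TGM1 did not differ. LV-miR454 had SLPI higher (3.92-fold) and PPL, the cytolinker periplakin, 2.27 times lower, of 8 measured.

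Suprabasal keratins, desmosome and barrier genes (16) were mixed. KRT4, a mucosal keratin, was 8.14 times lower in the CRISPR interference library and 4.49-fold higher in CRISPRd_miR301a-#2, but against LV-vector-34 that knockout was 1.95-fold higher and not called. ABCA12, a lipid transporter of lamellar granules, was higher in the CRISPR interference library (2.35-fold) and in CRISPRd_miR454-#1 (4.42-fold). KRT80 was the 1 of 6 called in LV-miR454, 2.19-fold higher, and was 1.12-fold higher and not called against CRISPRd_Control. ALOXE3, a barrier lipoxygenase, was 3.32 times lower in CRISPRd_miR301a-#2 and not called against LV-vector-34. In CRISPRd_miR454-#1, ALOX12B and ELOVL4, also of barrier lipid synthesis, were higher at 3.25-fold and 3.98-fold, and of these ELOVL4 alone was also called against LV-vector-34. ALOX12B was under 1 CPM in CRISPRd_Control (0.507 CPM).

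Of 17 regulators of epidermal differentiation, 3 of 14 measured were higher and 1 lower in the CRISPR interference library. Among the 3 higher, 2 were under 1 CPM in the mock library. MAF, a transcription factor that promotes keratinocyte differentiation, had 132 counts against 2 in the mock library, and the receptor NOTCH3 was 2.51 times lower. In LV-miR454 the AP-1 subunits JUN (2.76-fold) and FOSL1 (2.20-fold) were among 3 higher, and GRHL3, a barrier regulator, was the 1 lower. The knockouts had 1 of 12 higher each and 4 or 3 lower. PRDM1, a repressor active in granular cells, was 16.7 and 23.5 times lower there, and FOSL1 5.51 and 3.24 times lower, while FOSL1 also stood 2.60 times lower in LV-vector-34 than in CRISPRd_Control. Set against the other control line, FOSL1 was called in CRISPRd_miR301a-#2 (2.12 times lower) and neither in CRISPRd_miR454-#1 nor in LV-miR454. In LV-miR454 its direction turned, with a ratio of 0.847 (0.793 to 0.903) to CRISPRd_Control.

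Receptors of S100 ligands were called in opposite directions. In the CRISPR interference library TLR4, a receptor of calprotectin, had 108 counts against 12 and MCAM, a melanoma adhesion receptor, 282 against 119, 2 of 5 measured. TLR4 was under 1 CPM in the mock library (0.584 CPM). In the knockouts MCAM was the 1 of 4 called, 3.12 and 2.92 times lower, but it was also 2.37 times lower in LV-vector-34 than in CRISPRd_Control and was not called against LV-vector-34. AGER, a receptor of S100P, had 114 counts against 73 in the CRISPR interference pair and 61 and 92 counts in the knockouts, against 58 in CRISPRd_Control, and was not called.

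Epidermal wound and alarmin genes (12) were higher in 5 of 6 measured in the CRISPR interference library, where 9.43% of all genes were, and in 5 of 5 in CRISPRd_miR454-#1, where 6.61% were. All 5 in the CRISPR interference library and 3 of the 5 in CRISPRd_miR454-#1 were under 1 CPM in the control, so these shares are set largely by the filter. In the CRISPR interference library these included IL1B (69 counts against 4), IL1A (54 against 2) and the wound keratin KRT17 (47 against 4). In CRISPRd_miR454-#1 the protease inhibitors SERPINB3 (20.8-fold) and SERPINB4 (39 counts against 4) and the siderophore-binding LCN2 (5.04-fold) led. CRISPRd_miR301a-#2 had LCN2 (12.6-fold) and SERPINB3 (4.96-fold) higher and IL1A lower, with 0 counts against 20. Against LV-vector-34 LCN2 was called and SERPINB3 was not, and IL1A had too few reads to be measured.

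Markers of other cell types were read beside these results. In the CRISPR interference library 5 of 5 measured basal keratinocyte markers were higher, where 9.43% of all genes were. Of these 5 markers, 3 were under 1 CPM in the mock library. The remaining marker of the list, DSG3, was not measured, with 0 counts in the CRISPR interference library and some in the mock library. The 6 genes of this list summed to 27.3 CPM, against 4.72 CPM in the mock library. KRT5 was higher at 10.4-fold, KRT14 at 11.1-fold and TP63, the basal master regulator, at 6.03-fold. The suprabasal markers KRT1, DSG1 and DSC1 had 0 counts in both libraries, so these defining markers of differentiated epidermis were not read beside LCE3D and IVL. KRT10 carried the suprabasal list at 45.6 CPM, against 38.3 CPM in the mock library, and was not called. Of 5 measured fibroblast markers 4 were higher in the same library, 3 of them under 1 CPM in the mock library (36.1 CPM against 12.8 CPM for 8 genes). The 13 myeloid markers summed to 5.99 CPM, against 6.77 CPM, with FPR1 higher (31 counts against 1). FPR1 was under 1 CPM in the mock library (0.0487 CPM). Among simple epithelial markers KRT19 was higher (6.27-fold), and CDH1 and EPCAM were 3.04 and 3.31 times lower. The part of these markers in the members' values was not tested.

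In the knockouts, where S100A9 was high, the 13 myeloid markers summed to 23.0 CPM in CRISPRd_miR301a-#2 and 23.5 CPM in CRISPRd_miR454-#1, against 11.8 CPM in CRISPRd_Control. The neutrophil markers CSF3R, MPO and FCGR3B were at 0 in all 3 libraries, as were FPR1, TYROBP and AIF1. CD14 was higher in both, at 2.15-fold and 2.65-fold, and ELANE (63 counts against 27) and PTPRC (75 against 1) were called in CRISPRd_miR301a-#2 and not in the other knockout. PTPRC was under 1 CPM in CRISPRd_Control (0.0507 CPM), so it passed the filter only through CRISPRd_miR301a-#2. Against LV-vector-34, CD14 and PTPRC were called and ELANE was not. The part of PTPRC, CD14 and ELANE in the S100A9 values was not tested. Fibroblast markers there summed to 11.7 and 16.2 CPM, against 19.4 CPM in CRISPRd_Control, with THY1 at 0 in both knockouts against 81 counts, where LV-vector-34 had 10.

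In LV-miR454 basal keratinocyte markers were 0 of 3 called (8.13 CPM against 6.49 CPM in LV-vector-34). Myeloid markers summed to 9.51 CPM against 7.43 CPM, with ELANE lower (5 counts against 28). KRT19 was higher there (635 counts against 46), and fibroblast markers stood at 82.0 CPM against 36.6 CPM, with COL1A1 and THY1 higher and COL3A1 lower. The control lines differed in these genes. Against CRISPRd_Control, LV-miR454 had COL1A1 higher (5.21-fold), COL3A1 higher (60 counts against 7) and KRT19 (635 against 355) and THY1 (54 against 81) not called. In LV-miR301a, where no member was called, fibroblast markers summed to 86.7 CPM. COL1A1 (2.56-fold) and COL3A1 (2.07-fold) were higher there against LV-vector-34. The part of all these markers in the values of LCE3D, S100A2 and S100A9 was not tested.

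Only S100A2 and S100P were read at 1 CPM in each table, and the genes with the most similar 9 log2 ratios were sought for them among 10533 genes that reached 5 CPM in each table. The measure was Euclidean distance over the 9 comparisons, some of which share a control library. Nearest to S100A2 were LGALS3 (galectin-3, distance 0.69), COL7A1 (type VII collagen of skin anchoring fibrils, 0.79) and TRAM1 (a translocon protein, 0.81), where the median gene lay at 2.12. Nearest to S100P were SPDEF, a transcription factor of goblet cells (1.04), FCGBP, a mucus protein (1.04), and GPX2, a glutathione peroxidase of epithelia (1.35), with a median of 4.16. All 3 of these were below their control in the CRISPR interference library and above it in both knockouts, the pattern by which they were picked.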

How the data were processed

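Poly(A) RNA from 13 A549 libraries, 1 per group, was sequenced. Per the submitters' processing notes, RSEM 1.3.3, Bowtie2 2.3.5.1 and genome GRCh38.p13 were used; neither strand setting nor annotation is given in the sources used here, and overlapping or antisense genes could therefore share reads. The authors' deposited values are expected counts, RSEM's estimates per gene, which can hold fractions and are not normalised. The tables list 59653 genes (CRISPR interference), 17976 (PRR11 and SKA2) and 39735 (microRNA and CRISPRd), and LCE3E is not listed in the second. For counting intervals each estimate was rounded to the nearest whole count. Left out were 181 unnamed entries of the CRISPR interference set (0.355% and 0.431% of its counts), and in the microRNA set 4840 numbered copies of symbols (1.96% to 2.10% of the counts) were summed per symbol.

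Library sizes were scaled within each table by the trimmed mean of M values (edgeR 4.0.16, R 4.3.3), so levels set across tables are side by side only. Intervals of ratios are exact (Clopper-Pearson) and those of levels exact Poisson, both at 95%. Both describe counting error alone: the reads carry no molecular identifiers and need not be independent. A count of 0 was taken as 3 counts, which is 0.136 to 0.165 CPM. With 1 library per group no p-value was computed. The size rule was tested on simulated Poisson counts drawn at the observed means. Those counts held no variation between cultures, so that test bears on counting error only. The members, lists and motifs were chosen with earlier results of these data known.

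Genes named beside the members are up to 3 called genes per list and comparison with the largest log2 ratio, and the 3 nearest genes of each member at 1 CPM in every table. Some genes that this rule selects are not reported here. AGER, KRT10, CRCT1, genes bordering the members and markers at 0 counts are named outside it, after their values were seen. Gene positions, exon lengths and transcripts came from GENCODE release 29 on GRCh38, transcript identities were computed with Biopython 1.88, and intervals with scipy 1.17.1 (Python 3.11.15, pandas 2.3.3, numpy 2.4.6). Alternatives were DESeq2 1.42.0 size factors, plain totals, other pseudocounts, filters and folds, unrounded counts, unsummed copies and the other control line of the same table (for genes beside the members, added after the data were seen).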

Additional observations from a re-analysis of the deposited data

How the results depend on the processing

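The numbers of members called were recomputed under 8 settings for the 9 comparisons and both directions. Of 144 such counts, 142 stayed within 1.5 times, but most of these were 0 as reported and stayed 0. The 142 include the members higher in the CRISPR interference library, which fell from 4 to 3 with CPM + 1. With at least 5 CPM required in either library, LV-miR454 against LV-vector-34 had 0 members called higher and 0 lower, because LCE3D, S100A2 and S100A9 lie below that level. In all, 174 log2 ratios of measured members were recomputed, under all settings except the changed filters and folds. Of these, 9 moved by more than the main ratio's own counting interval, all against the other control line. That interval is wide for genes with few control counts: with CPM + 0.1, IVL in the CRISPR interference library was at 5.29, against 3.50 as reported, and S100A9 in LV-miR454 at -2.78, against -1.72, both within it. Among these 174 ratios, 7 calls changed, 6 of them against the other control line. The calls of LV-miR454 lost at 5 CPM come on top of these. Of the 9 ratios that moved, those of S100P were -1.10 (LV-miR301a), -0.37 (LV-miR454) and -1.23 (LV-3+4) against CRISPRd_Control. Against LV-vector-34 they were 2.77 (CRISPRd_miR301a-#2) and 3.46 (CRISPRd_miR454-#1). Those of S100A9 were 1.74 (LV-miR301a) and 1.63 (LV-3+4) against CRISPRd_Control, and 2.79 and 2.12 in the knockouts against LV-vector-34. S100P and S100A9 stayed called higher in both knockouts. Against CRISPRd_Control LV-miR454 lost its calls of S100A9 (-0.09, with too few reads to be measured) and S100A2 (0.93), and with CPM + 1 the call of S100A2 in the CRISPR interference library was lost (0.95). Of genes named from the lists, the call against the other control line was the same for 8 of 15 in LV-miR454, 10 of 21 in CRISPRd_miR301a-#2 and 13 of 19 in CRISPRd_miR454-#1. The cause was not tested. Plain totals shifted the median of all genes by -0.11 (log2) in CRISPRd_miR454-#1 and by less than 0.1 elsewhere, and changed no member's call. Over all genes, calls of higher expression ranged from 897 to 2762 around 1415 in the CRISPR interference comparison and from 263 to 1216 around 443 in LV-miR454. In CRISPRd_miR301a-#2 they ranged from 661 to 2043 around 1013 and in CRISPRd_miR454-#1 from 647 to 2026 around 992, lowest at 5 CPM and highest at 1.5-fold. No paired analysis was possible because each group is 1 library, and for the same reason no library could be left out. Reads under 20 or levels under 1 CPM kept SPRR1A, SPRR1B and S100A8 from being measured in any comparison. The same limits kept IVL and TGM1 from being measured in all but the CRISPR interference pair. They also did so for LCE3E in the microRNA and CRISPRd comparisons, while LCE3E is not listed for LV-PRR11, LV-SKA2 and LV-P+S.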
